A study of Mus musculus with 6 samples.

Results

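Genes of major histocompatibility complex (MHC) class I antigen presentation were examined in subcutaneous white fat of mice with an adipocyte-targeted deletion of Tfg. The set held 10 named genes, chosen with the differences between these arrays in view: B2m, H2-K1, H2-D1, Tap1, Tap2, Tapbp, Tapbpl, Erap1, Nlrc5 and Cd1d1. A gene was read from the probe set that carried its symbol and no other, and where several did, from the one with the highest mean over the 6 arrays. By that rule 9 of the 10 genes were found among 30701 named genes, each with 1 probe set. The probe set of Nlrc5 also carries the symbol of a microRNA gene, so Nlrc5 has no value here. Because the choice used this contrast, the differences of the 9 genes are given as a description, without a test.

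Whole-transcript arrays measured RNA of inguinal subcutaneous white adipose tissue from male C57BL/6 mice aged 2 months. The 3 mice of the KO group were TFG f/f; Adipoq-ERT2Cre, that is, they carried floxed Tfg alleles and a tamoxifen-activated Cre recombinase under the promoter of the adiponectin gene. The 3 mice of the WT group were TFG f/f without Cre, so both groups had floxed alleles and the groups also differ in the presence of Cre. Both groups received tamoxifen into the peritoneum for 5 days, and RNA was taken 2 weeks later. Cre driven this way acts in adipocytes, while the RNA came from whole tissue, which also holds vessels, stromal cells and immune cells. In such bulk samples, more cells of a type and more RNA per cell cannot be told apart.

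MHC class I molecules display peptides from inside the cell to CD8 T cells. A polymorphic heavy chain pairs with the light chain beta-2-microglobulin in the endoplasmic reticulum, where chaperones hold it until a peptide is bound. The peptides are cut by proteasomes, pumped in by the transporter TAP, and trimmed and edited before the loaded complex leaves for the cell surface. Most nucleated cells express class I, and interferons raise its expression.

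The deposited values are log2 signals, and all differences below are means of KO-labelled minus means of WT-labelled arrays on that scale (n = 3 each). Array medians over all probe sets were 6.76, 6.47 and 6.73 on the KO-labelled arrays, against 6.97, 6.96 and 7.02 on the WT-labelled arrays. The array KO 2 stood apart, with correlations of 0.960 and 0.964 to the other KO-labelled arrays, which correlated with each other at 0.986. Tfg itself read 7.99, 8.21 and 8.03 on the KO-labelled arrays, against 7.97, 7.94 and 7.91 on the WT-labelled arrays. As deposited, it was not lower where deletion is labelled (difference 0.14 ± 0.11 (SE), limma adjusted p = 0.345, exact two-sided permutation p = 0.1, the smallest that 3 against 3 arrays allow). Set against 12 housekeeping genes, whose mean was 1.06 higher on the KO-labelled arrays, the difference of Tfg turned to -0.92 (exact two-sided permutation p = 0.1), without overlap. That scaling lowers the difference of every gene by the same 1.06. The median difference of protein-coding genes was -0.18 as deposited, so Tfg stays above that median on either scale. Whether Tfg reads lower thus depends on the scale, and the turn to -0.92 is not particular to Tfg. The part of Tfg that its probe set reads is unknown here, so the groups are named by their labels throughout, and every direction rests on those labels.

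B2m, which encodes the light chain shared by all classical class I molecules, had the largest difference of the 9 genes. Its log2 signal was 16.13, 17.81 and 15.65 on the KO-labelled arrays, against 12.14, 12.83 and 10.13 on the WT-labelled arrays. The groups did not overlap, and the lowest KO-labelled array lay 2.82 above the highest WT-labelled one. The means were 16.53 ± 1.13 on KO-labelled and 11.70 ± 1.40 on WT-labelled arrays (SD, n = 3 each). The difference was 4.83 ± 1.04 (SE), a 28.4-fold higher signal, at the 99.96th percentile of the differences of 19228 protein-coding genes. B2m also varied most within the WT-labelled group of any of the 9 genes, with a range of 2.70 set mainly by the low array WT 3. None of the 9 genes reached 19.93, the ceiling of the table.

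The classical heavy chains H2-K1 and H2-D1, which bind the peptide, were higher on every KO-labelled array, with smaller differences than B2m. H2-K1 read 10.50, 11.97 and 9.98 on the KO-labelled arrays, against 9.40, 9.59 and 9.21 on the WT-labelled arrays. H2-D1 read 10.34, 11.71 and 9.34 on the KO-labelled arrays, against 8.97, 9.28 and 8.90 on the WT-labelled arrays. Neither gene overlapped between the groups, but for H2-D1 the array KO 3 exceeded WT 2 by only 0.06. The differences were 1.42 ± 0.61 for H2-K1 and 1.41 ± 0.70 for H2-D1 (SE), or 2.67-fold and 2.66-fold higher signals. The array KO 2 carried much of both: without it the differences were 0.84 for H2-K1 and 0.79 for H2-D1, and that of B2m was 4.19. H2-K1 and H2-D1 are closely similar copies, as are other class I genes of the same region, and how far their probe sets share signal was not tested.

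**Figure D1:**
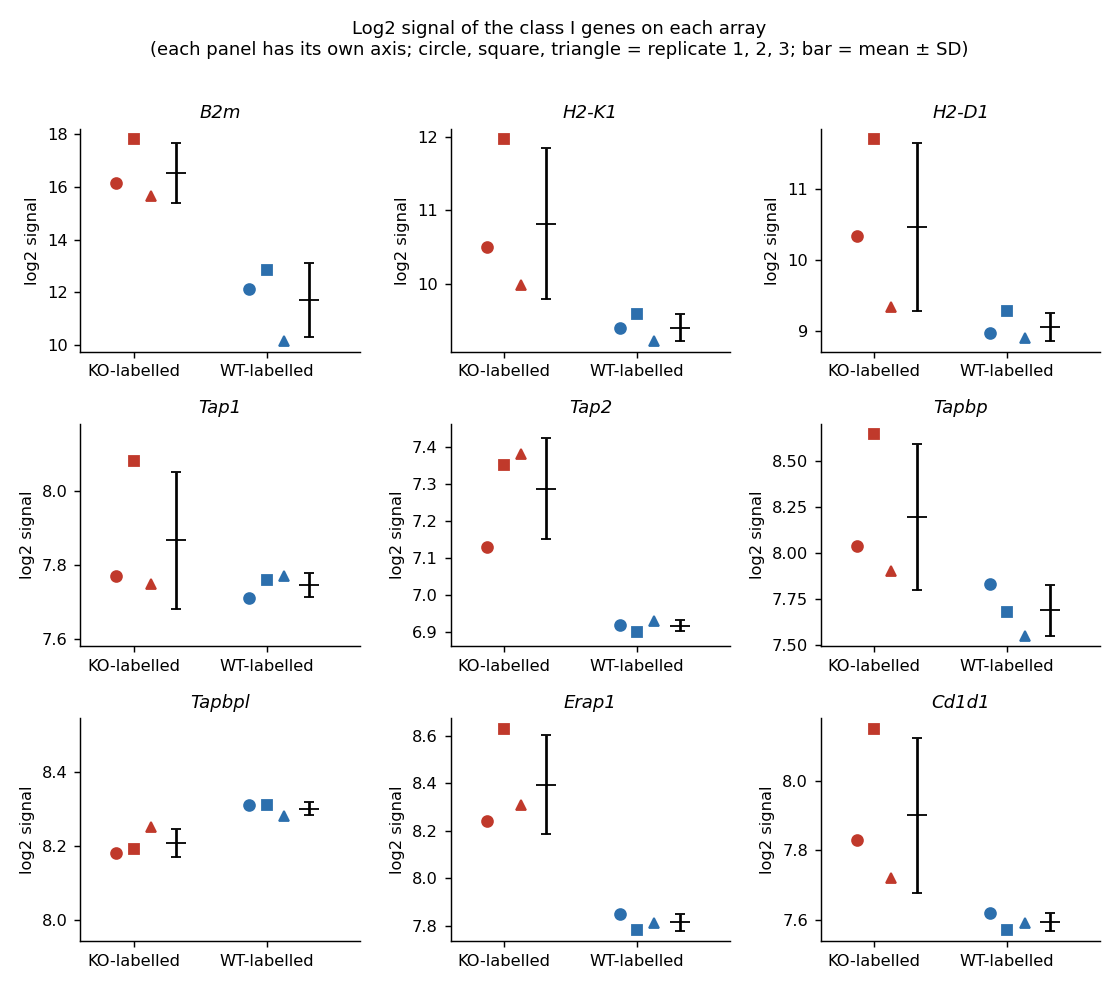
Log2 signal (vertical axes, a separate range in each panel) of the 9 class I genes on the 3 KO-labelled and 3 WT-labelled arrays, with the mean and SD of each group beside the points. The KO-labelled arrays of B2m sit between 15.65 and 17.81, all above the WT-labelled arrays, whereas Tap1 overlaps and Tapbpl is slightly lower on the KO-labelled arrays.

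The promoters of the 3 genes with the largest differences are shown because class I genes are known to share an upstream module. In that module an X2 element bound by CREB and ATF1 stands before a Y element bound by NF-Y, and NLRC5 acts through it, while interferon regulatory factors (IRF) and NF-kB bind further upstream. Tap1 is shown beside them as a gene of the same pathway that overlapped between the groups. Each line gives the 180 bases before the annotated start in RefSeq on GRCm38.p6, read 5′ to 3′ on the gene's strand, with motif matches in capitals. They lie at chr2:122147507-122147686 on the plus strand for B2m, chr17:34000334-34000513 on the minus strand for H2-K1, chr17:35262914-35263093 on the plus strand for H2-D1, and chr17:34187376-34187555 on the plus strand for Tap1. For H2-K1, which has more than 1 annotated window, the one with the lower coordinates is shown.
B2m: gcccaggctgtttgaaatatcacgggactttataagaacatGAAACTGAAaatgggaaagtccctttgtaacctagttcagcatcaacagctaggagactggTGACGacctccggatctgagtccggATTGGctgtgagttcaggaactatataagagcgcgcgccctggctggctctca
H2-K1: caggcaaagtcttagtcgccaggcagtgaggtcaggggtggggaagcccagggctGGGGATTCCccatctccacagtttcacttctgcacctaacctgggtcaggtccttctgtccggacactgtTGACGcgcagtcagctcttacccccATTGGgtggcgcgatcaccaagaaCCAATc
H2-D1: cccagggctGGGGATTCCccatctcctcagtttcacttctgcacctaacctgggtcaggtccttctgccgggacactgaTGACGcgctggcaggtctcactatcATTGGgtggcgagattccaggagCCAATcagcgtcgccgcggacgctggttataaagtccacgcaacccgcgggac
Tap1: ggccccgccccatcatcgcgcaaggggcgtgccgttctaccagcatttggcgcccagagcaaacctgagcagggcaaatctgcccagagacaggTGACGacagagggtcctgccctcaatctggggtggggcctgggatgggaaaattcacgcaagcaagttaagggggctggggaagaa

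The capitals mark GAAANNGAA (an IRF core), GGGNNTTCC (a form of the NF-kB site), TGACG (a core of CREB sites) and CCAAT, which reads ATTGG on the other strand (the NF-Y box). Both strands were searched from 250 bases before to 50 after the start, and 6 of the 10 genes had such a window in the RefSeq table: B2m, H2-K1, H2-D1, Tap1, Tapbp and Erap1. In B2m, H2-K1 and H2-D1, TGACG was followed on the same strand by ATTGG with the first bases 25 apart, the arrangement of the X2 and Y elements. That pair, with a spacing of 10 to 40 bases, occurs in 0.947% of all 32851 windows. Counting the annotated start as 0, it began at -78 in B2m, -55 in H2-K1 and -101 in H2-D1. From the NF-kB form to the end of the ATTGG match, H2-K1 and H2-D1 were identical at 89 of 100 bases, so their shared matches are not separate observations. From TGACG to the end of ATTGG, H2-K1 and B2m were identical at 13 of 30 bases.

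The IRF core was found in B2m and Erap1, against 8.56% of all windows, and in Erap1 2 overlapping matches began at -9 and -3. The NF-kB form was found in H2-K1 and H2-D1, against 5.82% of all windows. Longer or shifted forms were not searched, and B2m holds gggaaagtccc just downstream of its IRF core. H2-K1 and H2-D1 hold tttcacttc just downstream of their NF-kB form. That stretch is close to the TTCACTTTC matched in Erap1, but the IRF core as written does not match it. The absence of an IRF match in H2-K1 and H2-D1 therefore holds for the searched form only. Which of these genes show an IRF or NF-kB match thus depends on the forms chosen. TGACG stood in B2m, H2-K1, H2-D1 and Tap1, against 20.8%, and CCAAT in all of the 6 genes but Erap1, against 37.4%. The gamma-activated site TTCNNNGAA was found in 0 of the 6 genes, against 8.30%. These are matches of letters and say nothing of binding in these samples.

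**Figure D2:**
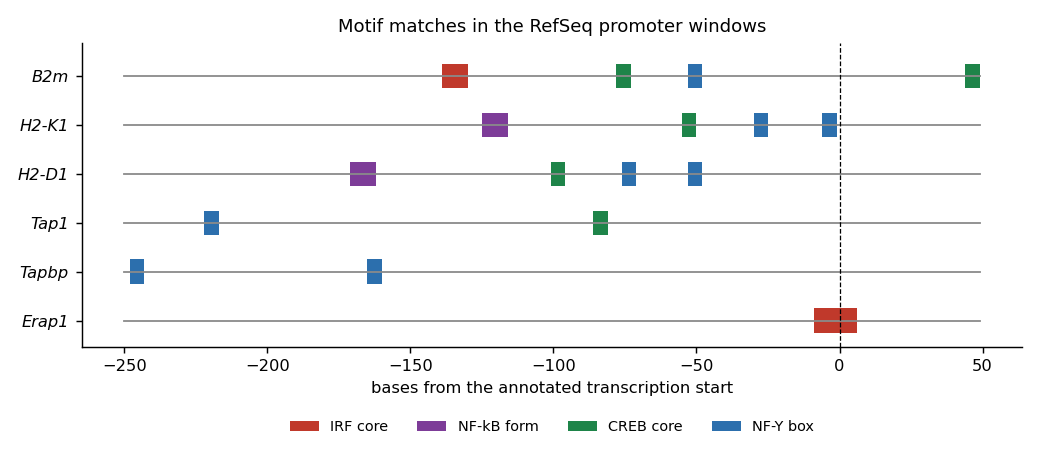
Positions of motif matches (coloured blocks) in the RefSeq windows of 6 class I genes, in bases from the annotated start on the horizontal axis, with 1 gene per row. In B2m, H2-K1 and H2-D1 a CREB core is followed by an NF-Y box with the first bases 25 apart, and Tapbp and Erap1 show no CREB core.

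The transporter genes Tap1 and Tap2, whose products form the peptide pump of the endoplasmic reticulum, differed little. Tap1 read 7.77, 8.08 and 7.75 on the KO-labelled arrays, against 7.71, 7.76 and 7.77 on the WT-labelled arrays. Those groups overlapped, and the difference of 0.12 ± 0.11 (SE) came from KO 2, without which it was 0.01. Tap2 read 7.13, 7.35 and 7.38 on the KO-labelled arrays, against 6.92, 6.90 and 6.93 on the WT-labelled arrays. Its groups did not overlap, and the difference was 0.37 ± 0.08 (SE), or 0.34 without KO 2. On chromosome 17 both genes are neighbours of the immunoproteasome genes Psmb9 and Psmb8, in the order Psmb9, Tap1, Psmb8 and Tap2. Psmb8 was higher by 0.56 ± 0.14 (limma adjusted p = 0.0421). Psmb9 overlapped between the groups, with a difference of -0.06 as deposited that turned to 0.20 after quantile normalization and 0.27 after centring (adjusted p = 0.684, 0.317 and 0.263).

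Tapbp encodes tapasin, which bridges TAP and the empty heavy chain, and Tapbpl encodes TAPBPR, a peptide editor related to it. Tapbp read 8.04, 8.65 and 7.90 on the KO-labelled arrays, against 7.83, 7.68 and 7.55 on the WT-labelled arrays. The groups did not overlap, although KO 3 exceeded WT 1 by only 0.07, and the difference of 0.51 ± 0.24 (SE) was 0.28 without KO 2. Tapbpl read 8.18, 8.19 and 8.25 on the KO-labelled arrays, against 8.31, 8.31 and 8.28 on the WT-labelled arrays. It was the only gene of the 9 lower on all KO-labelled arrays, by -0.09 ± 0.02 (SE) as deposited, but its difference turned to 0.07 with quantile normalization and to 0.24 with centred arrays.

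Erap1 encodes the aminopeptidase that trims peptides in the endoplasmic reticulum. It read 8.24, 8.63 and 8.31 on the KO-labelled arrays, against 7.85, 7.78 and 7.81 on the WT-labelled arrays. The groups were 0.39 apart, as far as for H2-K1, with less spread among the KO-labelled arrays. The difference was 0.58 ± 0.12 (SE), or 0.46 without KO 2. Cd1d1 encodes a class I-like heavy chain that pairs with beta-2-microglobulin and presents lipids to natural killer T cells. It read 7.83, 8.15 and 7.72 on the KO-labelled arrays, against 7.62, 7.57 and 7.59 on the WT-labelled arrays. Its groups did not overlap, and the difference of 0.31 ± 0.13 (SE) was 0.18 without KO 2.

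Of the 9 genes, 7 read higher on all KO-labelled than on all WT-labelled arrays, 1 read lower and 1 overlapped. Among all protein-coding genes 23.3% were higher in this way and 41.0% were lower, and since the genes were chosen on this contrast nothing is read from the count. The median difference was 0.51 for the 9 genes, against -0.18 for protein-coding genes and -0.37 for all probe sets. Within the KO-labelled group, KO 2 was the highest array for 7 genes and KO 3 for 2, while KO 3 was the lowest for 6 genes and KO 1 for 3. Within the WT-labelled group, WT 3 was the lowest for 5 of the 9. No detection calls were used here, so whether a signal stood above background was not tested. As a yardstick, the top decile of 1082 olfactory receptor genes began at 9.29 in the WT-labelled group and 8.14 in the KO-labelled group. WT-labelled means of Tap2 (6.92), Cd1d1 (7.59), Tapbp (7.69), Tap1 (7.75), Erap1 (7.81), Tapbpl (8.30) and H2-D1 (9.05) lay below the first value. Of these genes, Tap2 (7.29), Tap1 (7.87) and Cd1d1 (7.90) also had KO-labelled means below the second value, and the others did not.

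The sizes of these differences depend on how the arrays are put on a common scale. Centring each array on its median raised every difference by 0.33, that of genes outside the set included. All 9 genes were then higher on all KO-labelled arrays, with a median of 0.84, against 0.15 for protein-coding genes. After quantile normalization 8 of the 9 were higher without overlap, with a median of 0.71, against 0.15 for protein-coding genes. Set against the mean of 12 housekeeping genes, which stood 1.06 higher on the KO-labelled arrays, only B2m kept its groups apart upward, at 3.77. On that scale H2-K1 and H2-D1 overlapped at 0.36 and 0.35, and the other 6 genes were lower without overlap, between -0.48 for Erap1 and -1.15 for Tapbpl.

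**Figure D3:**
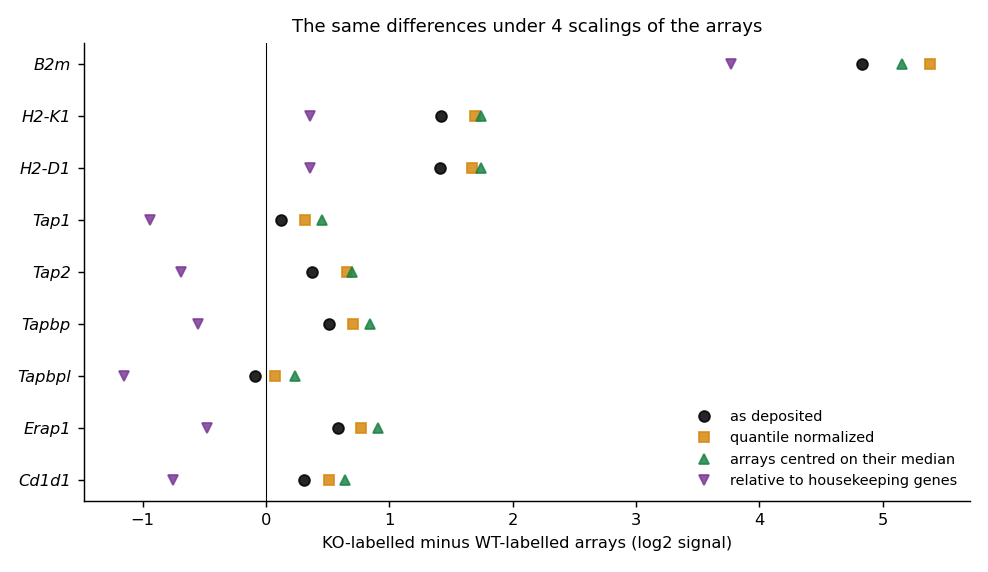
Difference between KO-labelled and WT-labelled arrays in log2 signal (horizontal axis) of each of the 9 genes under 4 scalings (symbols). B2m lies between 3.77 and 5.38 under all 4, whereas Tap1, Tap2, Tapbp, Erap1 and Cd1d1 change sign relative to the housekeeping genes and Tapbpl is positive after quantile normalization and centring only. Scaling to the housekeeping genes lowers the difference of every gene by 1.06.

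Genes that act beside the 9 were examined in 9 lists of 108 measured genes, tested with limma over all 65956 probe sets at an adjusted p under 0.05. Of the 108 genes 23 passed as higher and 9 as lower. Over all protein-coding genes limma called 10.7% higher and 10.2% lower. No gene passed when KO 3, WT 1, WT 2 or WT 3 was left out, although 25 to 36 of the listed genes were then higher and 11 to 17 lower at an unadjusted p under 0.05. Without KO 2, 21 were higher and 5 lower, and after quantile normalization or centring 24 or 30 were higher and 1 lower. Calls among all probe sets were 3509 higher and 10282 lower as deposited, 4032 and 2212 after quantile normalization, and 5146 and 3259 after centring.

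Chaperones and translocon genes of class I assembly (the chaperone list below) formed the list with the highest share of calls among the 9. Of 11 measured genes 8 were higher, Sec61b of the translocon among them, and 0 lower, with a median difference of 1.35. Canx, the calnexin gene, whose product holds the new heavy chain, read 11.40, 11.91 and 11.28 on the KO-labelled arrays, against 9.21, 9.23 and 9.09 on the WT-labelled arrays. Its groups were far apart, and the difference was 2.35 ± 0.19 (SE, limma adjusted p = 0.0346). Calr, which encodes calreticulin of the peptide loading complex, was higher by 1.67 ± 0.33 (adjusted p = 0.0364). Pdia3, which encodes the disulfide isomerase ERp57 of the same complex, was higher by 2.00 ± 0.32 (adjusted p = 0.0354). P4hb, another disulfide isomerase gene, and Bcap31, whose product escorts class I out of the endoplasmic reticulum, were higher by 2.24 ± 0.28 and 2.35 ± 0.35 (adjusted p = 0.0354 for each). These chaperones serve many secreted proteins, and 7 of 12 housekeeping genes were higher too, with a median of 1.11; relative to their mean, the median of the chaperone list was 0.29.

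Of 6 measured genes of the immunoproteasome and its activator, 3 were higher and 0 lower, with a median of 0.42 that turned to -0.64 relative to the housekeeping genes. Pomp, which encodes the proteasome assembly factor, was higher by 1.82 ± 0.29 (limma adjusted p = 0.0354), and Psmb10, a catalytic subunit gene, by 0.55 ± 0.11 (adjusted p = 0.0365). The activator gene Psme1 differed by 0.29 without passing (adjusted p = 0.108). Of the constitutive subunits that these replace, Psmb7 was higher by 1.60 ± 0.41 (adjusted p = 0.045, and 0.0567 after quantile normalization) and Psmb6, at 0.66, did not pass (adjusted p = 0.125). Among 6 peptidase genes (median 0.53, or -0.53 relative to the housekeeping genes) 2 were higher and 0 lower: Tpp2, whose product cuts long peptides, by 1.02 ± 0.24, and the aminopeptidase gene Npepps by 0.57 ± 0.14 (adjusted p = 0.0416 for each). Lap3 and Rnpep differed by 0.71 and 0.50 without passing (adjusted p = 0.0526 and 0.0754).

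Among 27 measured class Ib and class I-like heavy chain genes 2 were higher and 5 lower as deposited, and the list's median of -0.32 turned to 0.04 after quantile normalization and 0.01 after centring. Fcgrt, which encodes the neonatal Fc receptor, another partner of beta-2-microglobulin, read 9.53, 10.45 and 9.62 on the KO-labelled arrays, against 8.54, 8.65 and 8.20 on the WT-labelled arrays. Its groups did not overlap, and it was higher by 1.40 ± 0.28 (limma adjusted p = 0.0364). H2-Q10, a secreted class Ib gene known from liver, was higher by 0.54 ± 0.10 (adjusted p = 0.036). The 5 lower genes were H2-M9 and 4 of the H2-M10 family, which is known from vomeronasal neurons, and only H2-M10.5 still passed after quantile normalization or centring (1 lower under each). H2-M10.5 fell by 1.18 (SE 0.23, adjusted p = 0.0361, and 0.0375 after quantile normalization). H2-M10.3 fell by 0.92 (SE 0.21, adjusted p = 0.04, and 0.0539 after quantile normalization). Beside them, 1082 olfactory receptor genes had a median difference of -0.82. H2-M3, which presents formylated peptides, and Mr1, which presents vitamin B metabolites, differed by -0.37 and 0.06 without passing (adjusted p = 0.0895 and 0.753), and the difference of Mr1 was -0.06 without KO 2.

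**Figure D4:**
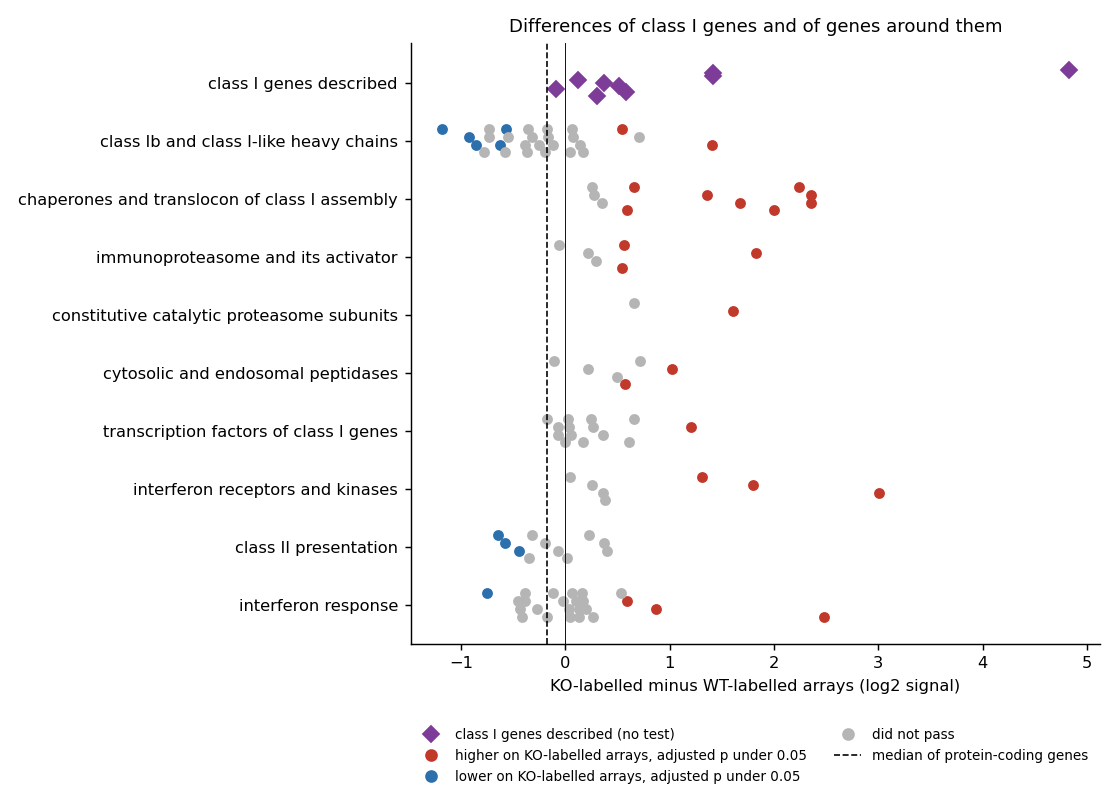
Difference between KO-labelled and WT-labelled arrays in log2 signal (horizontal axis) of the 9 class I genes, shown as diamonds without a test, and of 108 genes in 9 lists, shown as circles coloured by limma call. In the list of chaperones and translocon genes 8 of 11 genes are higher and none lower. Of 27 class Ib and class I-like genes 5 are lower as deposited, a list whose median turns from -0.32 to 0.04 after quantile normalization.

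Regulators and responses that class I shares with interferon signalling were mixed. Of 7 interferon receptor and kinase genes 3 were higher and 0 lower, with a median of 0.38 that turned to -0.68 relative to the housekeeping genes. Ifngr1, of the interferon gamma receptor, read 9.81, 11.49 and 10.09 on the KO-labelled arrays, against 7.74, 7.51 and 7.11 on the WT-labelled arrays. The groups did not overlap, and the difference was 3.01 ± 0.46 (SE, limma adjusted p = 0.0354). Ifnar2, of the type I receptor, and the kinase gene Jak1 were higher by 1.80 ± 0.23 and 1.31 ± 0.31 (adjusted p = 0.0354 and 0.0414), while Ifnar1 differed by 0.36 without passing (adjusted p = 0.0822). Of 14 transcription factor genes only Irf2, whose product binds IRF sites, passed, higher by 1.21 ± 0.21 (adjusted p = 0.0354). Irf1, a known activator of class I genes, differed by 0.17 (adjusted p = 0.273), Rela of NF-kB by 0.36 (adjusted p = 0.0966), and the X2-binding factor genes Creb1 and Atf1 by 0.66 and 0.61 (adjusted p = 0.0543 and 0.0818).

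Of 24 interferon response genes 3 were higher and 1 lower, with a median of 0.06, or -1.004 relative to the housekeeping genes. The chemokine gene Cxcl9 read 9.34, 9.64 and 8.41 on the KO-labelled arrays, against 6.58, 6.96 and 6.41 on the WT-labelled arrays. Its groups were well apart, and the difference was 2.48 ± 0.34 (SE, limma adjusted p = 0.0354). Usp18 and Bst2 were higher by 0.59 ± 0.13 and 0.87 ± 0.23 (adjusted p = 0.0391 and 0.0476), and after quantile normalization Bst2 did not pass (adjusted p = 0.0504). Mx1, annotated as a transcribed pseudogene, fell by 0.75 as deposited (SE 0.19, adjusted p = 0.0447), and by 0.40 without passing after quantile normalization (adjusted p = 0.0831).

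In the class II pathway, which shows peptides to CD4 T cells, 0 of 11 measured genes were higher and 3 were lower, but the list's median of -0.20 turned to 0.15 after quantile normalization and 0.13 after centring. Ciita, which encodes the class II transactivator and the relative of NLRC5, fell by 0.45 as deposited (SE 0.12, limma adjusted p = 0.0459), and by 0.10 without passing after quantile normalization (adjusted p = 0.526). H2-Eb2 and H2-Ob fell by 0.65 and 0.58 as deposited (SE 0.12 and 0.13, adjusted p = 0.0355 and 0.0403). After quantile normalization neither passed (adjusted p = 0.0997 and 0.133), and 0 genes of the list were lower after it or after centring. H2-DMb2 differed by -0.32 without passing (adjusted p = 0.0966), and by 0.01 after centring.

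Markers of other cells in the tissue moved beside the class I genes, and their part in the differences was not tested. Of 10 measured adipocyte markers 7 were higher and 0 lower, with list means of 11.99 to 13.38 on KO-labelled and 8.79 to 10.49 on WT-labelled arrays. From highest to lowest, both groups' arrays stood in the same order for this list mean as for B2m, H2-K1 and H2-D1: KO 2, KO 1, KO 3, WT 2, WT 1 and WT 3. The mean of the chaperone list had that order as well, while the other 6 class I genes did not follow it over all 6 arrays. Of 8 endothelial markers 7 were higher and 0 lower, with list means of 8.63 to 9.34 on KO-labelled and 7.05 to 7.31 on WT-labelled arrays, in that order too. The fibroblast, skeletal muscle, constitutive proteasome and transcription factor list means had the same order among the KO-labelled arrays only, and so did Tap1, Tapbp and Cd1d1. That part is thus not particular to adipocyte or endothelial markers, nor to B2m, H2-K1 and H2-D1. How many of all genes had the order was not counted. Pparg, the adipocyte transcription factor gene, was higher by 3.66 ± 0.42 (SE), and the vascular cadherin gene Cdh5 by 4.06 ± 0.28 (limma adjusted p = 0.0354 and 0.0346). Skeletal muscle markers averaged 9.06, 10.81 and 6.998 on the KO-labelled arrays, against 7.09, 7.08 and 6.995 on the WT-labelled arrays, and 0 of 8 passed (0 at an unadjusted p under 0.05 as well).

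Lymphoid marker lists held no gene that passed as higher. Limma called 10.7% of all protein-coding genes higher and 10.2% lower. Of 13 T and natural killer cell markers 0 were higher and 2 lower, with list means of 6.49 to 6.80 on KO-labelled and 7.10 to 7.18 on WT-labelled arrays. Of 7 B cell markers 0 were higher and 3 lower, with list means of 6.14 to 6.55 on KO-labelled and 6.87 to 6.94 on WT-labelled arrays. The B cell calls were 0 after quantile normalization and 0 after centring, and those of T and natural killer cells were 2 and 1. The list medians, -0.40 and -0.52 as deposited, were -0.18 and -0.19 after quantile normalization. For scale, 1082 olfactory receptor genes had a median signal of 7.47 on WT-labelled and 6.67 on KO-labelled arrays, and a median difference of -0.82. The means of the T and natural killer cell and B cell lists lay near or below that level, and whether the signals of these lists stood above background was not tested. Klrb1c, of the first list, read higher: 9.34, 8.70 and 8.95 on the KO-labelled arrays, against 9.99, 10.01 and 10.29 on the WT-labelled arrays. Its group means lay above the start of the olfactory receptor top decile in each group (8.14 and 9.29). It fell by 1.10 (SE 0.20, limma adjusted p = 0.0354), and still passed after quantile normalization (adjusted p = 0.0387) and centring (adjusted p = 0.0327). Cd8a, of the coreceptor for class I, differed by -0.32 as deposited and by 0.05 after quantile normalization without passing (limma adjusted p = 0.192 and 0.853). The leukocyte gene Ptprc differed by -0.12 as deposited and by 0.17 after quantile normalization (adjusted p = 0.425 and 0.463). Of 8 macrophage markers 2 were higher and 0 lower, with list means of 7.88 to 8.13 on KO-labelled and 7.55 to 7.61 on WT-labelled arrays, and its median of 0.21 turned to -0.85 relative to the housekeeping genes. Lyz2 and C1qb were higher by 1.61 ± 0.28 and 0.80 ± 0.18 (adjusted p = 0.0354 and 0.0399), whereas Adgre1 differed by -0.03 as deposited and by 0.27 after quantile normalization (adjusted p = 0.885 and 0.12). Of 7 dendritic cell markers 0 passed in limma, and 3 had an unadjusted p under 0.05. Of 4 lymph node stroma markers 1 was lower, and of 6 fibroblast markers 1 was higher.

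**Figure D5:**
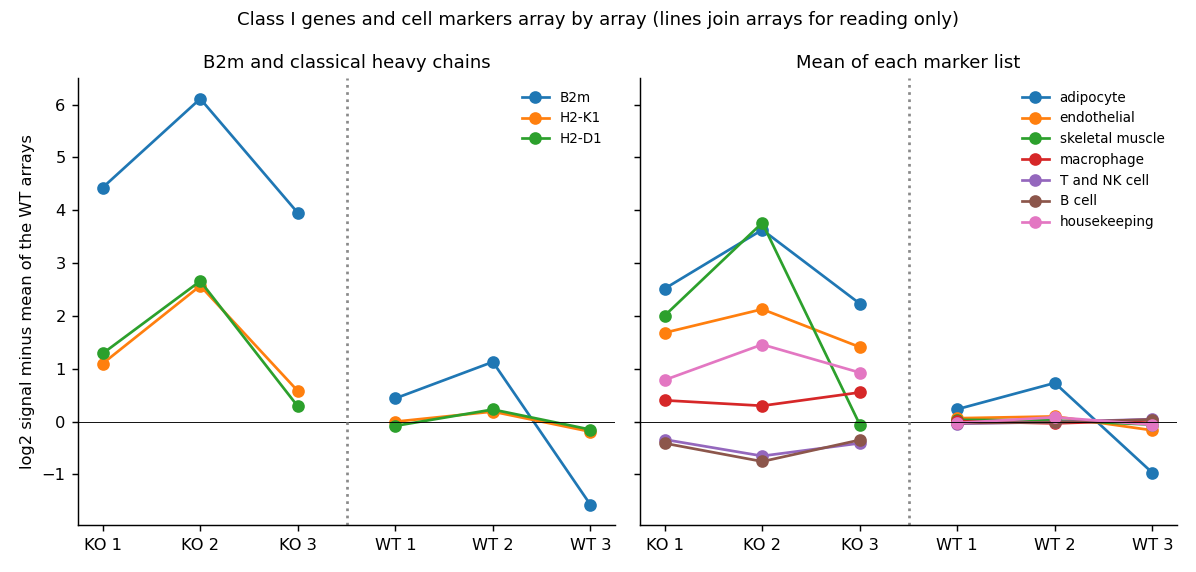
Log2 signal minus the mean of the WT-labelled arrays (vertical axis) on each array, for B2m, H2-K1 and H2-D1 (left) and for the means of 7 marker and housekeeping lists (right); lines join arrays of a group only to guide the eye. B2m, H2-K1, H2-D1 and the adipocyte mean are highest on KO 2 and lowest on WT 3, while the T and natural killer cell and B cell means lie below the WT-labelled arrays on every KO-labelled array as deposited. The median signal of 1082 olfactory receptor genes (not drawn) differs in that direction too, at 7.47 on WT-labelled and 6.67 on KO-labelled arrays.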

How the data were processed

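The deposited table holds 1 log2 signal per probe set and array, for 65956 probe sets on 6 arrays. Per the labels, biotin labelling used the GeneChip WT pico kit, and Transcriptome Analysis Console stands in the submitters' processing notes. How background, scaling and summary were done is not given in the sources, and neither are detection calls, scan dates or batches, and the number of arrays limits the precision. GEO's annotation, with symbols updated through RefSeq (GRCm38.p6), gave 31258 probe sets 1 symbol, 1492 several and 33206 none.

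Arrays were grouped by their titles, KO or WT, 3 each, which the labels call biological replicates. They were compared with limma 3.58.1 in R 4.3.3 (lmFit, eBayes without trend, genotype as the only term, Benjamini-Hochberg over all probe sets), which was tested on simulated data. Tfg also had an exact permutation test in scipy 1.17.1. Members and lists were chosen with earlier results of these data known. The text names, from each of the 9 pathway lists, up to 4 genes with the smallest p, from marker lists up to 3, and a fixed set (Psmb8, Psmb9, Psmb10, Calr, Canx, Pdia3, Irf1, H2-M3, Mr1, Fcgrt, Ciita, Ptprc, Cd8a, Adgre1, Adipoq), of which those that bear on the class I genes are given with values. H2-M9 and the other lower genes of its list were named after their values were seen. Some listed genes are not reported here. Of 128 listed pathway genes 108 were measured, and of 77 markers 71. Alternatives were quantile normalization, centring, scaling to housekeeping genes, dropping dim probe sets (average below 6.21) or each array, eBayes with trend and robust, the replicate number as a block, averaging a gene's probe sets, and a threshold of 0.1. Python 3.11.15, pandas 2.3.3 and numpy 2.4.6 prepared the tables.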

Additional observations from a re-analysis of the deposited data

How the results depend on the processing

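Calls over all probe sets were 3509 higher and 10282 lower. They were 5902 and 24774 at an adjusted p under 0.1, and leaving out 1 array gave 0 to 3469 higher and 0 to 10697 lower. The lower calls were 2212 after quantile normalization and 3259 after centring. Among the pathway genes, 23 higher became 0 to 25 when 1 array was left out, and 9 lower became 0 to 7, 1 after quantile normalization, 1 after centring and 4 with the replicate block. Among the markers, 17 higher became 0 to 17 and 6 lower 0 to 6 when 1 array was left out, and the lower calls were 3 after quantile normalization and 2 after centring. The counts of 0 arose without KO 3, WT 1, WT 2 or WT 3, where limma still gave 4683 to 5710 higher and 16896 to 22987 lower probe sets at an unadjusted p under 0.05. The replicate numbers were not taken as pairs. For this, the mean of each group was first subtracted at each probe set. The deviations that remained correlated at 0.0015, 0.20 and 0.14 between same-numbered arrays, and those of KO 1 correlated best with those of WT 3 (0.17). With the block 2960 probe sets were higher and 8267 lower.

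The median difference of the 9 class I genes, 0.51, was 0.71 after quantile normalization, 0.84 after centring, -0.55 relative to the housekeeping genes and 0.34 to 0.62 with 1 array left out. Tfg, 0.14 as deposited, did not pass in limma under any alternative run with it and lay between 0.07 and 0.18 when 1 array was left out. It turned to -0.92 relative to the housekeeping genes, an alternative that was chosen after seeing the data and lowers the difference of every gene by 1.06. Quantile normalization turned the difference of Ptprc to 0.17, Psmb9 to 0.20, Cd8a to 0.047, Madcam1 to 0.17 and Adgre1 to 0.27. Centring turned Ptprc to 0.21, Psmb9 to 0.27, H2-DMb2 to 0.013, Cd8a to 0.013, Madcam1 to 0.17 and Adgre1 to 0.30. With 1 array left out, Mr1 lay between -0.058 and 0.152 and Adgre1 between -0.10 and 0.09, and for both the change of sign came without KO 2. None of these reversed genes had passed, and the cause was not tested.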
